A study of Bos taurus with 16 samples.

Results

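The genes described here are transcription factors and steroid receptors of the granulosa cell, the somatic cell of the ovarian follicle that surrounds the oocyte and makes oestradiol. A list of 8 genes was given (FOXL2, NR5A1, NR5A2, GATA4, GATA6, WT1, ESR1 and ESR2), and 6 of them were matched by name among the 20629 genes and transcripts of the files. GATA6 and WT1 had no match and were not analysed here. The 8200 transcripts without a matched gene name may hold them. RNA was sequenced from 16 libraries of granulosa cells aspirated from the dominant follicle of lactating Holstein cows at 63 ± 3 days after calving, 7 labelled treatment and 9 labelled control. The study is a cohort on lasting effects of uterine disease. Every cow had entered a synchronisation programme with gonadotrophin-releasing hormone and then prostaglandin F2α, aspiration came before the next hormone injection, and cows with metritis had been given ceftiofur. What treatment means is not spelled out in the labels, so the groups keep these names. Blood is the tissue entered for each library. No label ties a library to a cow, so p-values measure the spread between libraries.

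FOXL2 is a forkhead factor that keeps the identity of granulosa cells in mice and other mammals. NR5A1 (steroidogenic factor 1) and NR5A2 (liver receptor homologue 1) are closely related nuclear receptors that bind DNA as monomers and drive genes of steroid synthesis. GATA4 is a zinc finger factor that acts with NR5A1 on several of those genes. ESR1 and ESR2 are the oestrogen receptors alpha and beta; beta is the form known for its high level in granulosa cells, while alpha is known from theca, stroma and the epithelia of the reproductive tract.

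Libraries held 8004595 to 14138964 transcript counts, and 3 counts corresponded to 0.212 to 0.375 CPM (the usual scaling of a count by its library's total). INHA, the inhibin alpha subunit, split the libraries into 2 kinds. It lay between 1759 and 3041 CPM in 9 libraries, called granulosa-rich (treatment replicates 4 to 7 and control replicates 2, 3, 4, 7 and 8). It lay between 0.404 and 111 CPM in the other 7, called leukocyte-rich (treatment replicates 1 to 3 and control replicates 1, 5, 6 and 9). The kinds were read from the data, not from the labels. The summed level of 12 monocyte and macrophage markers was 22.5 to 1809 CPM in granulosa-rich and 6085 to 13644 CPM in leukocyte-rich libraries. Among the granulosa-rich libraries, treatment replicate 7 stood apart by its CYP19A1 (aromatase, which makes oestradiol) of 276 CPM, against 8439 to 28576 CPM in the other 8. Treatment replicate 5 had the fewest transcripts detected, 12874, against 13568 to 19067 in the others of its kind. Levels of different genes are not compared with each other, because transcript lengths were not used here. In such bulk RNA fewer cells of a type and less RNA per cell cannot be told apart.

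FOXL2 was abundant in the granulosa-rich libraries and varied widely there. It was at 245, 53.7, 251 and 34.0 CPM in treatment replicates 4, 5, 6 and 7, against 177, 248, 41.1, 9.41 and 105 CPM in control replicates 2, 3, 4, 7 and 8. The groups overlapped, and each held libraries at both ends. The highest of the 9 libraries was 26.7 times the lowest, and 14.7 times after scaling by the trimmed mean of M-values. FOXL2 in the leukocyte-rich libraries was at 5.23, 1.23 and 0.169 CPM in treatment replicates 1, 2 and 3, against 0.442, 0.449, 1.29 and 0.875 CPM in control replicates 1, 5, 6 and 9. The median of the granulosa-rich libraries was 120 times that of the leukocyte-rich ones, and the ranges of the 2 kinds did not overlap.

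NR5A1 was the steadiest of the 6 genes among the granulosa-rich libraries, with a coefficient of variation of 41.3%, against 50.6 to 79.1% for the other 5. It was at 216, 371, 282 and 86.5 CPM in treatment replicates 4, 5, 6 and 7, against 230, 188, 178, 109 and 204 CPM in control replicates 2, 3, 4, 7 and 8. The highest and the lowest library were both treatment libraries. In the leukocyte-rich libraries it was at 13.1, 10.7 and 0.169 CPM in treatment replicates 1, 2 and 3, against 1.77, 1.17, 8.72 and 1.62 CPM in control replicates 1, 5, 6 and 9. The ranges of the 2 kinds did not overlap.

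NR5A2 was low in every granulosa-rich treatment library relative to every granulosa-rich control library. It was at 7.58, 1.63, 24.8 and 12.4 CPM in treatment replicates 4, 5, 6 and 7, against 37.8, 33.9, 73.5, 32.4 and 58.5 CPM in control replicates 2, 3, 4, 7 and 8. The highest treatment library lay below the lowest control library, so the groups did not overlap. NR5A2 in the leukocyte-rich libraries was near the limit of detection, with 2.22, 0.573 and 0.422 CPM in treatment replicates 1, 2 and 3, against 0.295, 0.180, 0.404 and 0.625 CPM in control replicates 1, 5, 6 and 9. These stood for 2 to 20 counts a library.

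GATA4 was measured on few counts in all libraries. The granulosa-rich libraries held 10, 22, 18 and 3 counts in treatment replicates 4, 5, 6 and 7, against 15, 11, 10, 11 and 16 counts in control replicates 2, 3, 4, 7 and 8. Control was the narrower group and treatment held both ends. The leukocyte-rich libraries held 1, 3 and 0 counts in treatment replicates 1, 2 and 3, against 0, 0, 7 and 0 counts in control replicates 1, 5, 6 and 9. A count of 0 allows up to 0.221 to 0.375 CPM in these 4 libraries, for counting error only.

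ESR1 was alike in most granulosa-rich libraries, with 1 library far above and 1 far below. It was at 38.5, 2.24, 33.8 and 53.8 CPM in treatment replicates 4, 5, 6 and 7, against 28.5, 135, 44.2, 34.2 and 43.8 CPM in control replicates 2, 3, 4, 7 and 8. The groups overlapped, with treatment replicate 5 at the low end and control replicate 3 at the high end. Control replicate 3 also had the highest summed level of 10 epithelial markers, 4167 CPM, against 23.4 to 1089 CPM in the other 8. Treatment replicate 5 had 35.7 CPM. Control replicates 7 and 2 and treatment replicate 4 had 23.4, 49.2 and 36.8 CPM, with ESR1 at 34.2, 28.5 and 38.5 CPM. Control replicate 8 and treatment replicate 7 had 1089 and 1044 CPM of these markers, with ESR1 at 43.8 and 53.8 CPM. The part of such cells in the ESR1 values was not tested. In the leukocyte-rich libraries ESR1 was at 3.56, 0.655 and 2.95 CPM in treatment replicates 1, 2 and 3, against 0.516, 1.80, 0.0808 and 2.00 CPM in control replicates 1, 5, 6 and 9. Its median in the leukocyte-rich libraries was 4.67% of that in the granulosa-rich ones, against 0 to 1.90% for the other 5 genes.

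ESR2 spread like FOXL2. It was at 53.9, 10.1, 35.5 and 2.05 CPM in treatment replicates 4, 5, 6 and 7, against 37.1, 43.2, 14.9, 6.16 and 26.7 CPM in control replicates 2, 3, 4, 7 and 8. Treatment held the highest and the lowest library. In the leukocyte-rich libraries it was at 2.34, 0.164 and 0.506 CPM in treatment replicates 1, 2 and 3, against 0.958, 0.629, 0.404 and 0.375 CPM in control replicates 1, 5, 6 and 9. Treatment replicate 1, the leukocyte-rich library with the most INHA, lay just above treatment replicate 7 of the granulosa-rich ones.

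**Figure D1:**
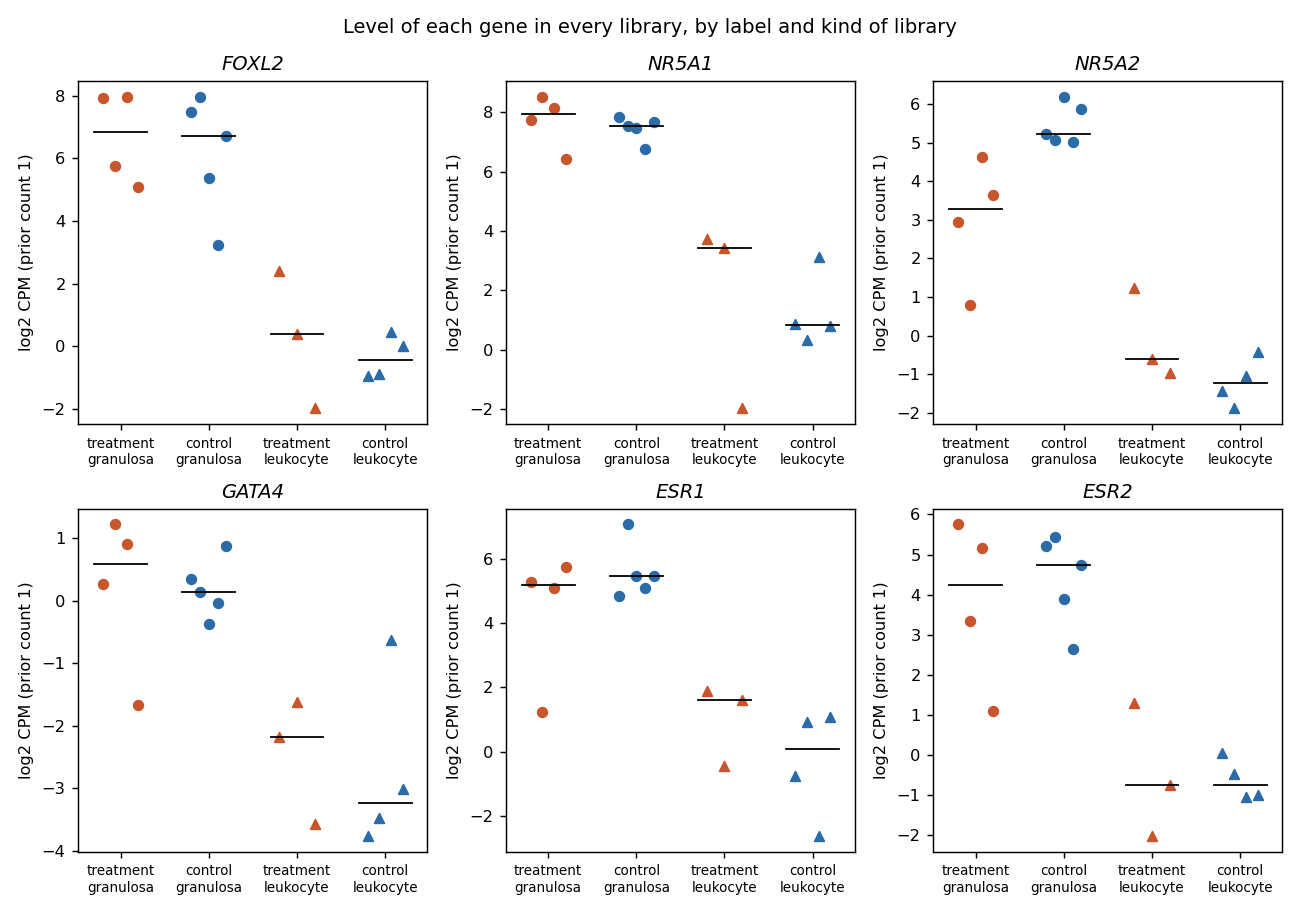
Level of each gene on the log2 CPM scale (prior count 1, vertical axis) in every library, with treatment left of control within each kind of library. Circles are granulosa-rich and triangles leukocyte-rich libraries, and bars are medians. NR5A2 is the gene whose 4 granulosa-rich treatment libraries (1.63 to 24.8 CPM) lie below all 5 control libraries (32.4 to 73.5 CPM).

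Between the kinds of library, FOXL2 and NR5A1 were the 2 of 6 genes whose CPM ranges did not overlap. Of all 9653 features tested, 6.1% had no overlap with the higher range in granulosa-rich libraries, and 11.6% had none with the lower range there. After scaling by the trimmed mean of M-values (TMM), NR5A2 and ESR2 were also apart, and 4 of 6 did not overlap, against 8.53% of all features with the higher range in granulosa-rich libraries and 10.5% with the lower. On that scale the lowest granulosa-rich library was 1.03 times the highest leukocyte-rich one for NR5A2 and 1.01 times for ESR2. GATA4 and ESR1 overlapped under both scalings. No test was made of this contrast, since the kinds were defined from the data.

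The first comparison asked whether these genes differed between treatment and control in the granulosa-rich libraries, 4 treatment and 5 control. NR5A2 had the lower values in treatment, with a log2 fold change of -2.28 ± 0.63 (SE, n = 4 and 5) and a 95% interval of -3.68 to -0.88. It did not pass the threshold: its unadjusted p was 0.00438 and its adjusted p 0.983 (edgeR's quasi-likelihood test, Benjamini-Hochberg over 9272 features). By p it ranked at position 31 of those features. No feature passed (0%), while 433 had an unadjusted p under 0.05, 2.72% of those tested with treatment lower and 1.95% with treatment higher. NR5A2 was the only one of the 6 genes with such a p. limma-voom also called 0 and DESeq2 called 14, NR5A2 not among them (adjusted p = 0.0826). CPM ranges of the groups did not overlap, with treatment lower, in 0.55% of the features tested and with treatment higher in 1.18%, and NR5A2 was the only one of the 6 genes with such ranges.

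The other 5 genes gave wide intervals around 0 in these libraries. NR5A1 was at 0.29 ± 0.38 (SE, 95% interval -0.56 to 1.14) and FOXL2 at 0.23 ± 0.76 (-1.45 to 1.90). GATA4 was at 0.16 ± 0.70 (-1.39 to 1.71) and ESR2 at -0.16 ± 0.75 (-1.81 to 1.49). ESR1 was at -1.01 ± 0.69 (-2.54 to 0.53). With single libraries left out it ranged from -1.42 (without treatment replicate 7) to -0.54 (without control replicate 3). The value without treatment replicate 5 lay within that range. A 2-fold change in either direction (1 on the log2 scale) lay inside the intervals of FOXL2, GATA4 and ESR2. The interval of NR5A1 left out a 2-fold lower level, and that of ESR1 left out a 2-fold higher one. The signs of FOXL2, NR5A1, GATA4 and ESR2 turned when single libraries were left out.

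NR5A2 kept its direction in the granulosa-rich libraries when each library was left out in turn, with log2 fold changes of -2.93 to -1.94 and unadjusted p of 0.00126 to 0.0147. Without treatment replicates 5 and 7 together, which was added after seeing the data, it was at -1.85 (unadjusted p = 0.0147, edgeR). Monocyte and macrophage markers summed to 347 to 1809 CPM in treatment and 22.5 to 737 CPM in control libraries of this kind. With that level as a covariate, also added after seeing the data, NR5A2 was at -1.92 (unadjusted p = 0.0311, edgeR). Granulosa markers, among them INHA, which defined the kinds of library, summed to 51335 to 158516 CPM in treatment and 110901 to 154345 CPM in control. Theca and stromal markers summed to 191 to 1108 CPM in treatment and 437 to 2974 CPM in control, and PDGFRB was at 0 in all 9. Their part in the NR5A2 values was not tested.

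A pair of RefSeq records carried the NR5A2 counts, and the fitted value of both was lower in treatment. XM_005217382.3 held 34, 10, 219 and 127 counts in treatment replicates 4, 5, 6 and 7, against 382, 307, 907, 358 and 432 counts in control replicates 2, 3, 4, 7 and 8. XM_005217386.3 held 35, 6, 32 and 30 counts in those treatment libraries, against 94, 60, 132, 41 and 110 counts in those control libraries. As CPM, XM_005217382.3 lay at 1.02 to 21.7 in treatment and 28.3 to 64.1 in control, with no overlap. XM_005217386.3 lay at 0.610 to 3.85 CPM in treatment and 3.32 to 11.9 CPM in control, and treatment replicate 4 was above control replicate 7. Fitted separately, which was also added after seeing the data, the log2 fold changes were -2.38 ± 0.72 (SE, unadjusted p = 0.00737) and -1.78 ± 0.57 (SE, unadjusted p = 0.0103), and neither passed (edgeR, adjusted p = 0.996 for each).

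NR5A1 counts lay mostly on XM_010810325.2, with 90.6 to 100% in the 9 libraries. The remaining record, NM_174403.2, held 157, 0, 175 and 92 counts in treatment replicates 4, 5, 6 and 7, against 238, 192, 204, 69 and 102 counts in control replicates 2, 3, 4, 7 and 8. Treatment replicate 5, the library with the most NR5A1, thus had 0 of 3645 NR5A1 counts on this record, which allows a share of up to 0.0823%. In the other 8 libraries the share was 5.15 to 9.43%. How reads shared by both records were assigned is not given in the sources used here.

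**Figure D2:**
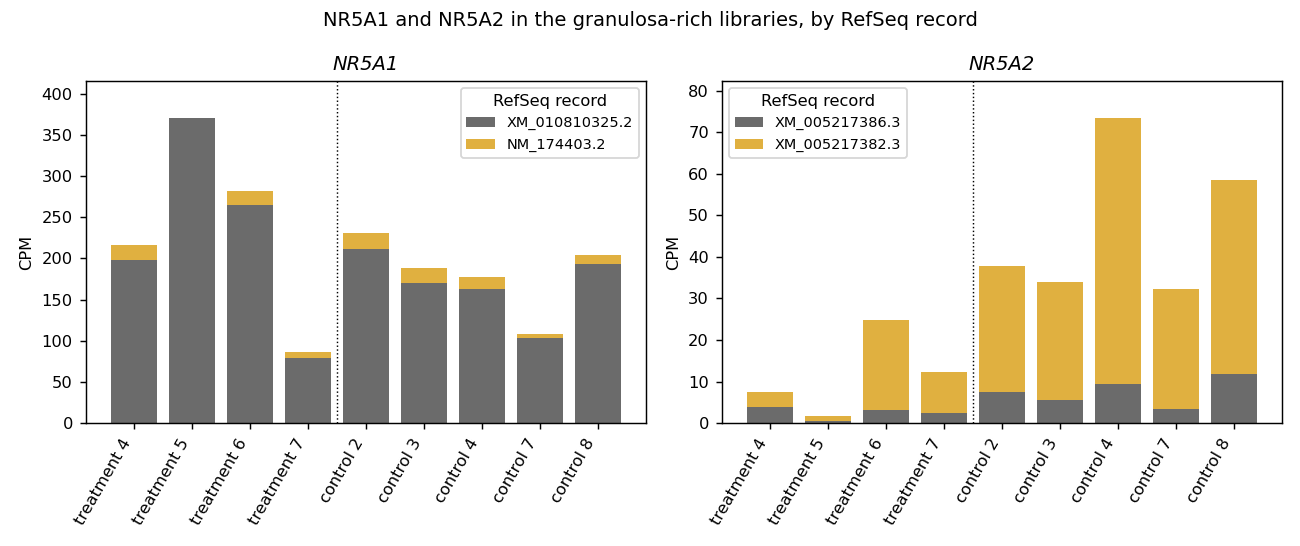
CPM (vertical axis) of NR5A1 and NR5A2 in the 9 granulosa-rich libraries, with treatment left of the dotted line and control right of it, and colours for the RefSeq records. NR5A1 is highest in treatment replicate 5 (371 CPM), the library in which NR5A2 is lowest (1.63 CPM).

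The count ratio of NR5A1 to NR5A2 within a library was 28.5, 228, 11.4 and 7.01 in treatment replicates 4, 5, 6 and 7, against 6.10, 5.55, 2.42, 3.36 and 3.49 in control replicates 2, 3, 4, 7 and 8. Every treatment library lay above every control library, the closest being 7.01 in treatment replicate 7 and 6.10 in control replicate 2. NR5A2 alone already separated these groups, so the ratio is not a separate result. How often ratios of other gene pairs separate the groups was not tested. The same ratio of ESR2 to ESR1 was 1.40, 4.50, 1.05 and 0.0380 in those treatment libraries, against 1.30, 0.319, 0.336, 0.180 and 0.608 in those control libraries. Treatment replicates 4 and 5 lay above all control libraries, treatment replicate 6 lay within their range and treatment replicate 7 below it. These ratios of counts do not allow for transcript length, so only their differences between libraries are given, with no test.

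Over all 16 libraries, 7 treatment and 9 control, none of the 6 genes passed. NR5A2 was at -2.18 ± 1.25 (SE, 95% interval -4.83 to 0.48, unadjusted p = 0.102, adjusted p = 0.9999, edgeR). With limma-voom it was at -0.82, and at -0.84 with library kind in the model. ESR1 was at -0.89 ± 1.17, FOXL2 at 0.30 ± 1.36, NR5A1 at 0.37 ± 1.22, GATA4 at 0.17 ± 0.98 and ESR2 at -0.09 ± 1.16 (SE). Of 9653 features edgeR called 0 (0%), with 163 at an unadjusted p under 0.05, limma-voom called 0 and DESeq2 called 2. None of the 6 genes had an unadjusted p under 0.05, which 0.901% of features had with treatment lower and 0.787% with treatment higher. None had ranges apart, as 0% of features did with treatment lower and 0.0104% with treatment higher.

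Within the leukocyte-rich kind, 3 treatment and 4 control libraries, only FOXL2, NR5A1 and ESR1 passed the filter on low counts. FOXL2 was at 1.46 ± 0.96, NR5A1 at 1.19 ± 1.18 and ESR1 at 1.17 ± 0.95 (SE), and none passed (edgeR, adjusted p = 0.9996 for each). FOXL2 was at -0.15 without treatment replicate 1, the library with the most INHA of its kind, and NR5A1 at 0.64. Of 9912 features edgeR called 0 (0%), with 259 at an unadjusted p under 0.05, limma-voom called 0 and DESeq2 called 1. None of the 3 genes had an unadjusted p under 0.05, which 1.2% of features had with treatment lower and 1.41% with treatment higher. None had ranges apart, as 1.85% of features did with treatment lower and 1.99% with treatment higher.

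The difference between the 2 within-kind effects was tested with an interaction term. Of the 6 genes, 3 passed the filter on low counts in both kinds. ESR1 was at -2.15 ± 1.2 (SE, unadjusted p = 0.0928, adjusted p = 0.930, edgeR), FOXL2 at -1.18 ± 1.27 (SE, unadjusted p = 0.368) and NR5A1 at -0.85 ± 1.15 (SE, unadjusted p = 0.468), and none passed. NR5A2, GATA4 and ESR2 did not pass that filter in the leukocyte-rich libraries. Their terms were fitted over all 16 libraries, and none passed. NR5A2 was at -3.75 ± 0.98 (SE, unadjusted p = 0.00158, adjusted p = 0.729, edgeR). GATA4 was at 0.51 ± 1.56 and ESR2 at -0.80 ± 1.19 (SE). NR5A2 stood on only 2 to 20 counts a leukocyte-rich library. With counts this low, these terms do not settle whether the effects differ between kinds. edgeR called 0 of 9653 features (0%), with 515 at an unadjusted p under 0.05, limma-voom called 0 and DESeq2 called 20.

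**Figure D3:**
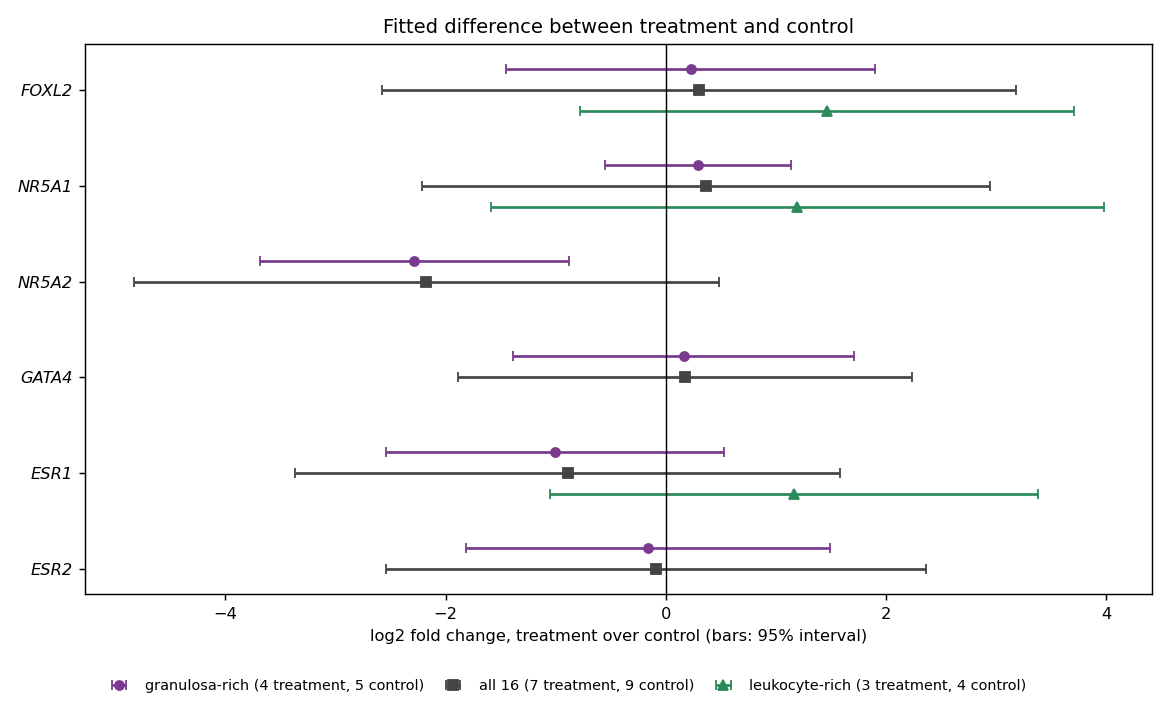
Fitted log2 fold change of treatment over control (horizontal axis) for each gene, with 95% intervals, in granulosa-rich libraries, all 16 libraries and leukocyte-rich libraries. The interval of NR5A2 in granulosa-rich libraries (-3.68 to -0.88) is the one that leaves out 0, before adjustment over all features. NR5A2, GATA4 and ESR2 have no value in leukocyte-rich libraries because of low counts.

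Among the 9 granulosa-rich libraries, 15 pairs of the 6 genes were compared. FOXL2 and ESR2 varied together (Pearson's r = 0.83, exact permutation p = 0.00511, adjusted p = 0.0384; Spearman's rho = 0.85, exact permutation p = 0.00607, adjusted p = 0.0456). Without treatment replicate 7 and control replicate 7, the libraries farthest from the FOXL2 median, r was 0.93. After TMM scaling r was 0.78 and the pair no longer passed (exact permutation, adjusted p = 0.0804). NR5A1 and GATA4 also varied together, on 3 to 22 GATA4 counts a library (r = 0.88, exact permutation p = 0.00136, adjusted p = 0.0205; rho = 0.93, exact permutation p = 0.00075, adjusted p = 0.0112). Without control replicate 7 and treatment replicate 7 this r was 0.83. After TMM scaling r was 0.89 with an adjusted p of 0.0804 (exact permutation), and 0.23 without treatment replicates 5 and 7, so on that scale the relation rested on those libraries. The other 13 pairs did not pass (adjusted p of r from 0.201 to 0.990, exact permutation over pairings, two-sided). They included NR5A1 and NR5A2 (r = -0.35, rho = -0.32) and ESR1 and ESR2 (r = 0.19, rho = 0.02).

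**Figure D4:**
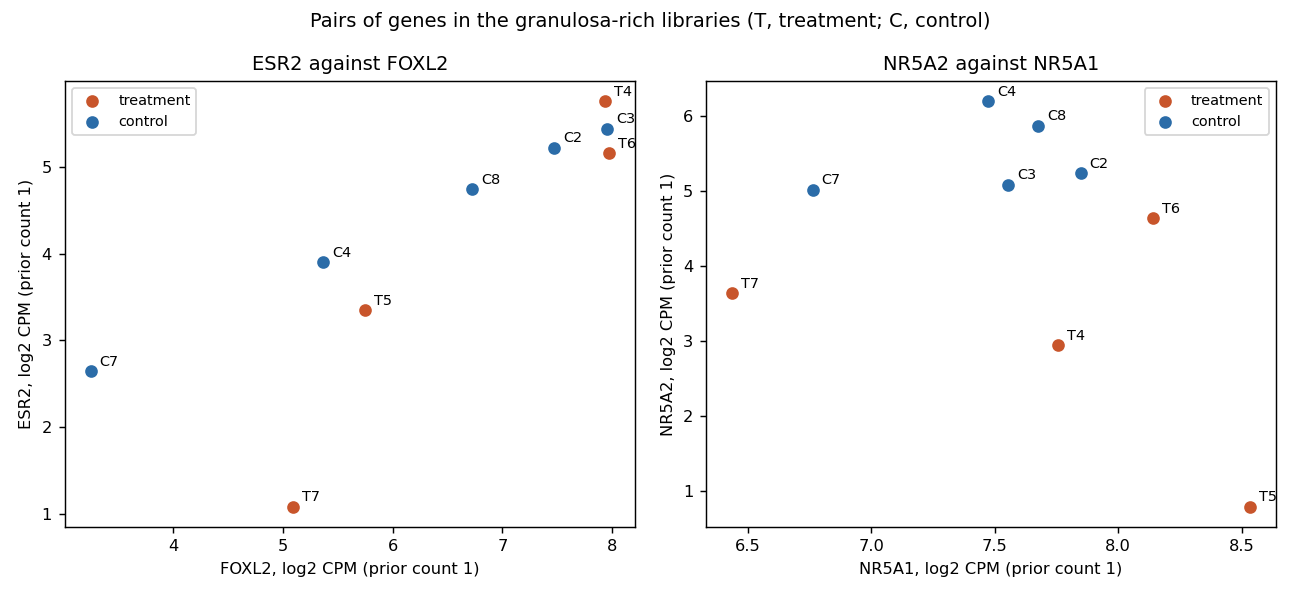
Log2 CPM (prior count 1) of ESR2 against FOXL2 and of NR5A2 against NR5A1 in the 9 granulosa-rich libraries, with T for treatment and C for control and the replicate number. FOXL2 and ESR2 vary together (r = 0.83), and treatment replicate 7 and control replicate 7 are low in both. In the NR5A panel the 4 treatment libraries lie below the 5 control libraries.

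For each gene, the 3 of 4605 annotated genes with the most alike pattern over these 9 libraries were looked up by Pearson's r of log2 CPM. They were picked as the highest values, so no p is given, and the 9 libraries share the differences in depth and cell content described above. FOXL2 was most like AARS2, a mitochondrial alanyl-tRNA synthetase (r = 0.99), PIK3R1, a regulatory subunit of phosphoinositide 3-kinase (r = 0.98), and ALDH16A1 (r = 0.98). NR5A1 was most like LMAN2L (r = 0.98), SPR, sepiapterin reductase (r = 0.97), and FDXR, ferredoxin reductase (r = 0.97). Among those most like NR5A2 were TOB1, an antiproliferative factor (r = 0.95), and the adhesion receptor ADGRL2 (r = 0.92). ESR1 was most like EZR, which links membrane and actin (r = 0.97), LPGAT1 (r = 0.96) and UGCG, glucosylceramide synthase (r = 0.96). ESR2 was most like ARHGEF28 (r = 0.98), the sulfotransferase CHST8 (r = 0.97) and LCMT1 (r = 0.96). GATA4, on few counts, was most like HINT2 (r = 0.97), PIGK (r = 0.97) and JTB (r = 0.96).

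NR5A1 did not follow CYP19A1 in all leukocyte-rich libraries. NR5A1 counts were 0.721 to 2.56% of CYP19A1 counts in 8 granulosa-rich libraries and 31.3% in treatment replicate 7, where CYP19A1 was low. The share was 1.28, 69.1 and 2.33% in treatment replicates 1, 2 and 3, against 11.0, 108, 372 and 4.42% in control replicates 1, 5, 6 and 9. Some of these rest on few counts of NR5A1 and CYP19A1: 13 and 12 in control replicate 5, 108 and 29 in control replicate 6. Treatment replicate 3 had 2 and 86. The shares do not allow for transcript length, so only differences between libraries are read. In control replicate 6, NR5A1 was at 8.72 CPM while INHA was at 0.404 and CYP19A1 at 2.34 CPM. The side-chain cleavage enzyme CYP11A1, the first step of steroid synthesis, was at 171 CPM there, and at 256, 58.4 and 2.70 CPM in treatment replicates 1, 2 and 3. Treatment replicates 1 and 2 and control replicate 6, the 3 leukocyte-rich libraries with the most NR5A1, also had the highest summed theca and stromal markers of their kind. These were at 7862 and 11058 CPM in those treatment libraries and 2330 CPM in that control library, against 402 to 1810 CPM in the other 4. CYP17A1, which theca cells use to make androgens, was at 13.2 and 0.819 CPM in treatment replicates 1 and 2 and at 4.04 CPM in control replicate 6, against 0.147 to 3.5 CPM in the other 4. The part of such cells in the NR5A1 values was not tested.

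**Figure D5:**
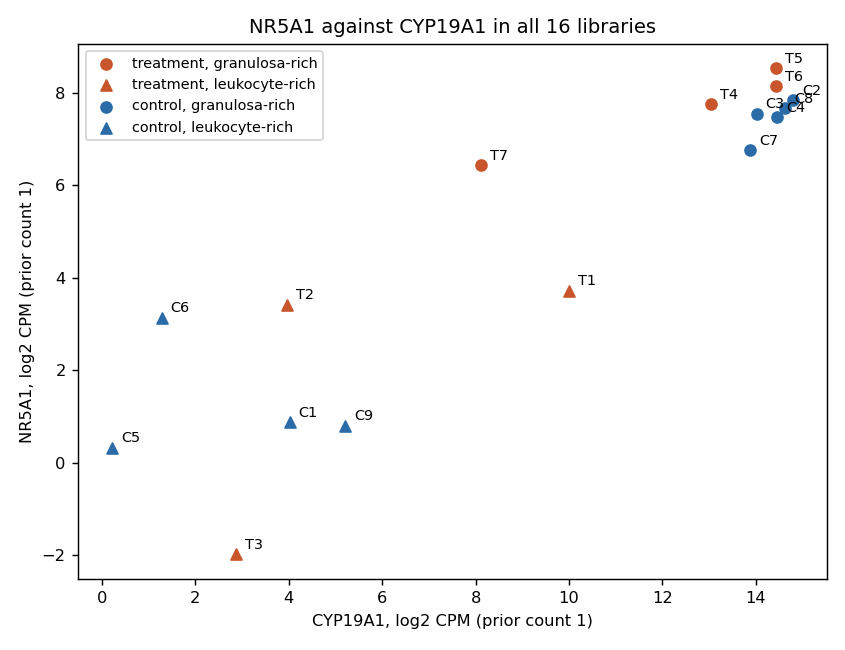
NR5A1 against CYP19A1 in all 16 libraries, both as log2 CPM (prior count 1), with T for treatment and C for control. Circles are granulosa-rich and triangles leukocyte-rich libraries. Treatment replicate 2 and control replicate 6 have more NR5A1 (10.7 and 8.72 CPM) than the other leukocyte-rich libraries except treatment replicate 1 (13.1 CPM), though their CYP19A1 is at 15.4 and 2.34 CPM.

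Genes known to work with these factors were described as lists for the granulosa-rich libraries, where 47.1% of all 9272 features had lower fitted values in treatment and the median log2 fold change was 0.04. No member of any list passed the test. Of 30 genes reported as targets in steroidogenic and granulosa cells, 25 were tested, with 21 lower and 4 higher fitted values in treatment (median -0.53). Among them were GJA1, the gap junction protein connexin 43, at -0.83 ± 0.38 (SE), and INHBA, the activin beta A subunit, at -0.71 ± 0.48 (SE). In the leukocyte-rich libraries the same list had 9 lower and 14 higher values (median 0.28). The list of targets shares genes with the granulosa markers described below, among them GJA1 and INHBA. It shares CITED4 with the partners and repressors. The counts of these lists therefore rest partly on the same genes. Of 21 partners and repressors 11 were tested, with 4 lower and 7 higher values (median 0.08). CITED2 and CITED4, transcription coregulators without a DNA-binding domain, were at 1.68 ± 0.71 and -1.49 ± 0.69 (SE), and NCOR1, a corepressor of nuclear receptors, at 0.03 ± 0.31 (SE).

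Of 36 genes listed as other nuclear receptors 17 were tested, with 9 lower and 8 higher fitted values in treatment. Their median was -0.054, and 0.30 without treatment replicate 7. NR4A1 and NR4A2 are orphan receptors encoded by early response genes. NR4A1 was at -5.51 ± 1.22 (SE, unadjusted p = 0.000979, adjusted p = 0.983, edgeR), with 0 to 6.77 CPM in treatment and 9.70 to 156 CPM in control libraries, which did not overlap. In the leukocyte-rich libraries NR4A1 was at 1.88 ± 0.70 (SE, unadjusted p = 0.0298, adjusted p = 0.9996, edgeR). NR4A2 was at -3.16 ± 1.11 (SE), with 0 to 0.551 CPM in treatment and 0.0923 to 4.67 CPM in control libraries. Its treatment values lay near or below the 0.212 to 0.375 CPM that 3 counts stood for, so its fold change rests on few counts. PGRMC1, a membrane-associated haem-binding protein counted in the same list though not a nuclear receptor, was at -0.51 ± 0.29 (SE). Of 27 other transcription factors of granulosa and gonad 12 were tested, with 5 lower and 7 higher values (median 0.19). SOX4 was at 2.38 ± 0.95 (SE), with 10.1 to 475 CPM in treatment and 12.6 to 47.0 CPM in control, and the Polycomb protein CBX2 at 1.67 ± 0.69 (SE). HIF1A, the oxygen-regulated factor, was at -0.11 ± 0.28 (SE). Of 10 testis-determining and Sertoli cell genes only 3 were tested, and SOX9 was not analysed here. Among them PTGDS, a prostaglandin D synthase, was at -1.42 ± 0.62 and GADD45G, a stress-induced regulator of kinase signalling, at 0.57 ± 0.56 (SE).

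Marker lists were described the same way in the granulosa-rich libraries, and no gene of these lists passed. Granulosa markers had 12 lower and 3 higher fitted values in treatment of 15 tested (median -0.38), with AMH, anti-Müllerian hormone, at -0.38 ± 0.25 (SE). The granulosa markers include INHA, which defined the kinds of library. Some of them, such as GJA1 and INHBA, are also counted among the reported targets above. Monocyte and macrophage markers had higher values in 8 of 8 tested (median 1.33), with the lysosomal protein CD68 at 2.40 ± 0.78 and the complement genes C1QA and C1QC at 1.69 ± 0.77 and 1.62 ± 0.83 (SE). Pan-leukocyte markers had higher values in 9 of 9 tested (median 0.26), with LCP1 at 0.89 ± 0.88, ITGB2 at 1.18 ± 1.31 and LAPTM5 at 0.67 ± 0.80 (SE). Theca and stromal markers had 7 lower and 1 higher value of 8 tested (median -1.54), with the collagens COL1A2 and COL1A1 at -3.55 ± 1.5 and -2.24 ± 1.06 and CYP17A1 at -1.20 ± 1.39 (SE). Epithelial markers had lower values in 8 of 8 tested (median -1.83), with the keratins KRT19 and KRT5 at -2.35 ± 1.35 and -2.93 ± 1.79 (SE). The median of their summed level was 377 CPM in treatment and 327 CPM in control, and without control replicate 3 (4167 CPM) 4 had lower and 4 higher values (median -0.27). Endothelial markers had 1 lower and 4 higher values of 5 tested (median 1.58), with VWF, von Willebrand factor, at 3.26 ± 1.46 and KDR, a receptor of vascular endothelial growth factor, at 1.93 ± 1.29 (SE). Their summed level was 141 CPM in treatment replicate 7 and 7.83 to 16.6 CPM in the other treatment libraries, against 4.22 to 37.9 CPM in control. Without that library 3 had lower and 3 higher values (median -0.094), with VWF at 0.77 and KDR at -0.79. None of 9 oocyte markers in the files, among them ZP2, ZP3 and NLRP5, was abundant enough to be tested. Of these lists only the monocyte and macrophage level was used as a covariate, in the granulosa-rich libraries. The part of the other cell types in the levels of the transcription factors and receptors was not tested.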

How the data were processed

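Cells pelleted from follicle aspirates gave the RNA (integrity number 7 or more, 200 ng), and poly(A) libraries were amplified over 12 cycles, per the labels' protocols; the kit named there keeps no strand information. The submitters' processing notes name cutadapt, Bowtie2 and SAMtools. Their versions, the genome build and the handling of multi-mapping reads are not stated in the sources at hand. The deposited files hold raw counts per RefSeq accession, and a missing line was taken as a count of 0. The 133 genomic records (0.712 to 1.92% of counts) were left out. Accessions were matched without version to RefSeq's table of ARS-UCD2.0 (names only, 18973 of 27173 matched) and summed per gene, with 8200 unmatched transcripts kept. CPM uses the library total.

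Treatment was compared with control by edgeR 4.0.16 in R 4.3.3 (glmQLFit, robust, TMM, filterByExpr), with DESeq2 1.42.0 and limma 3.58.1 as alternatives. Genes passed at an adjusted p under 0.05. The test was tried on simulated counts. SE was derived from the fold change and the F statistic (absolute log2 fold change over √F). Log2 CPM uses a prior count of 1. From each list the 2 genes with the lowest p in the granulosa-rich fit and the most abundant gene were to be named, and other genes were named after their values were seen. CYP11A1 and CYP19A1 are among these. List values without a single library were added after seeing the data. The genes and lists were chosen with earlier results of these data known. Counting limits cover counting error only, since PCR reads carry no molecular identifiers. Overlapping and antisense genes cannot be told apart. A gene with a pattern like that of NR5A2 is not reported here.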

Additional observations from a re-analysis of the deposited data

Results flagged for a closer look

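In 27 groups of 4 or 5 libraries of one label and kind, the highest and the lowest library were compared with the rest, and 2 stood apart, where chance flags about 1 in 20 groups. Both were for ESR1 in the granulosa-rich libraries. In treatment ESR1 was at 2.24 CPM in replicate 5, against 33.8 to 53.8 CPM in the other 3 libraries. In control ESR1 was at 135 CPM in replicate 3, against 28.5 to 44.2 CPM in the other 4.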

How the results depend on the processing

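None of 400 refits of a gene passed an adjusted p of 0.05, and NR5A2 kept its direction in all of its own. Calls over all features were 0 under every alternative except DESeq2, which called 14 in granulosa-rich, 2 in all 16 and 1 in leukocyte-rich libraries and 20 for the interaction; with each library left out they were 0 to 0. Genes with ranges apart between kinds numbered 4 after TMM scaling, and correlated pairs 0. Signs turned for ESR2 over all 16 libraries with library size alone (0.041), the kind covariate (0.16) and the replicate block (0.078). They turned for ESR1 there with limma-voom (0.018) and for GATA4 with the replicate block (-0.25). In granulosa-rich libraries they turned for GATA4 with limma-voom (-0.29) and the block (-1.02), for NR5A1 with the block (-0.55) and on NM_174403.2 alone (-0.59), and for FOXL2 with the monocyte covariate (-0.036), and for ESR2 without treatment replicates 5 and 7 together (0.61). The block in granulosa-rich libraries rests on 2 shared replicate numbers and 1 residual degree of freedom. The r of FOXL2 and NR5A2 was -0.15 after TMM scaling, against 0.0048 before. The cause was not tested.

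With single libraries left out, values ranged in all 16 libraries from -0.89 to 0.23 for ESR2, -0.24 to 0.82 for FOXL2, -0.49 to 0.40 for GATA4 and -0.28 to 0.59 for NR5A1. In granulosa-rich libraries they ranged from -0.78 to 0.22 for ESR2, -0.14 to 0.64 for FOXL2, -0.36 to 0.52 for GATA4 and -0.15 to 0.57 for NR5A1. FOXL2 ranged from -0.15 to 1.99 in leukocyte-rich libraries. The FOXL2 interaction ranged from -1.75 to 0.38. Interaction terms of NR5A2 (-4.36 to -2.77), GATA4 (-0.041 to 1.57, and -0.75 with limma-voom) and ESR2 (-1.45 to 0.62) rest on counts too low in leukocyte-rich libraries to be read. The replicate numbers are shared by 7 pairs. Their deviations from the mean of their label and kind correlated from -0.203 to 0.146. Only numbers 1, 4 and 7 joined libraries of the same kind, at -0.104, -0.134 and 0.132. So few such pairs cannot settle whether a shared number marks a shared cow. With the replicate block 0 features were called in all 16 and in granulosa-rich libraries, where NR5A2 was at -2.85 and FOXL2 at 1.70 (unadjusted p = 0.0123, adjusted p = 0.409, edgeR). That granulosa-rich block fit compares treatment with control only within the 2 shared numbers and leaves 1 residual degree of freedom. It is therefore no check over all libraries of this kind. Over all 16, with 7 shared numbers, FOXL2 was at 2.05 with the block. In leukocyte-rich libraries no block could be fitted, since 1 number is shared. GATA4 rests on at most 22 counts a library.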
